A study of Mus musculus with 46 samples.

Results

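The comparison described here set macrophages that lack Pbrm1 against their controls after 4 hr of lipid A. It rests on 4 of the 46 samples of the series, chosen by their labels: Pbrm1-/- cells at 4 hr (2 libraries) and Pbrm1f/f cells at 4 hr (2 libraries). A pair of Pbrm1f/f libraries at 0 hr from the same experiment, called resting controls below, shared the fit and gave the unstimulated level. All were mouse bone marrow-derived macrophages (BMDMs), cells grown from marrow progenitors in culture, from which polyadenylated RNA was sequenced as 50 bp single ends with a stranded kit. In the controls Pbrm1 carries the floxed (f) alleles that a recombinase can cut, and the labels used here give neither the recombinase, its promoter, the exons removed, nor the age or sex of the mice. The header of the deposited table names the knockout libraries 4hr_TAM in the counting command and 4hr_PBRM1KO in the columns. The labels do not say whether the 2 replicates of a group were separate animals or cultures, so p-values measure only the spread between these libraries, which may be technical. No unstimulated knockout cells enter the comparison, and a difference present before lipid A cannot be told apart from one in the response.

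Lipid A is the part of bacterial lipopolysaccharide (LPS) that TLR4 senses; signalling from TLR4 switches on NF-kB and interferon regulatory factors and with them a large set of cytokine genes. SWI/SNF complexes use ATP to move or evict nucleosomes, and they exist as canonical BAF, non-canonical BAF and PBAF. Pbrm1 encodes BAF180, a subunit with several bromodomains, which bind acetylated histones; it is found in PBAF together with Arid2, Brd7 and Phf10, whereas Arid1a and Arid1b belong to canonical BAF.

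With all 6 libraries few transcripts differed between the genotypes beyond the spread of the libraries, and how many did depended on which control library was used. Of 11044 genes tested on log2(TPM + 1), 7 were lower and 0 were higher in the knockout at a Benjamini-Hochberg adjusted p under 0.05 in limma, which is 0.0634% of the genes tested. At an unadjusted p under 0.05 there were 1148 genes (10.4%), and with voom on recovered reads 2 were lower, Pbrm1 and Gpx3, and 0 were higher (0.0181%). The 4 called genes of 200 bases or more were Pbrm1, Gpx3, Mgl2 and Klk1b11. The other 3 were short features, Snora68, Mir7027 and Mir1668. For most other genes the data bounded the effect on the log2(TPM + 1) scale. The 95% interval lay within 1 log2 unit of 0 for 9821 genes (88.9%), and within 0.5 for 3127 (28.3%). The share within 0.5 was 39.2% without control replicate 2 and 18.1% without control replicate 1. The median interval reached 0.41 to either side. The added 1 shrinks changes and intervals of low genes. With voom on recovered reads the interval lay within 1 for 7639 genes (69.2%), and the median interval reached 0.475.

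The control libraries at 4 hr differed from each other more than the resting or the knockout pair did. Across genes the difference between the 2 control libraries had an SD of 0.44 on the log2 scale, against 0.28 for the knockout pair and 0.26 for the resting pair. The controls were apart by at least 1 log2 unit for 414 genes (3.75%), the knockouts for 95 (0.86%). Control replicate 1 was apart by that much from the knockout libraries for 69 and 121 genes, and control replicate 2 for 532 and 667. With only 2 controls their difference cannot show which of them is unusual. Across genes control replicate 1 is the one nearer to the knockouts. By construction, leaving out replicate 2 therefore makes most differences smaller, and leaving out replicate 1 makes them larger. Single genes can go the other way: the change of Klk1b11 was -2.31 with all libraries, -2.60 without replicate 2 and -2.03 without replicate 1. Both fits are given to show how far results depend on the control, not as corrections. Without control replicate 2, 13 genes were lower and 0 were higher (0.118%), and the interval lay within 1 for 10607 genes (96.0%). Without control replicate 1 instead, 506 were higher (4.58%) and 1653 were lower (19.5% in all), and the interval lay within 1 for 8833 genes (80.0%). Of the 7 genes, 5 were also called without control replicate 2 and all 7 without control replicate 1; a lone library was assumed to vary like the other groups in such fits.

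The difference between the controls varied with the response to the stimulus. Genes raised at least 1 log2 unit by 4 hr of LPS in Arid1a f/f controls, which come from another experiment, numbered 1121 among those tested. Their median was 0.14 lower in control replicate 2 than in control replicate 1 (difference -0.14), while the 3400 genes repressed there were higher by 0.25, beside a shift of 0.15 over all tested genes; the corresponding medians between the knockout libraries were -0.06 and -0.04. Relative to that shift both medians of control replicate 2 lay on the resting side of control replicate 1, though not every gene did. Nos2, which encodes the inducible nitric oxide synthase, was at 628 and 128 TPM in the controls, 573 and 602 TPM in the knockouts and 0.032 and 0.033 TPM in resting controls. Il10, an anti-inflammatory cytokine, was at 125 and 29.4 TPM in the controls and 140 and 140 TPM in the knockouts. Marco, a scavenger receptor, went the other way, with 13.6 and 90.3 TPM in the controls against 19.9 and 19.2 TPM in the knockouts. What set the controls apart was not tested.

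**Figure D1:**
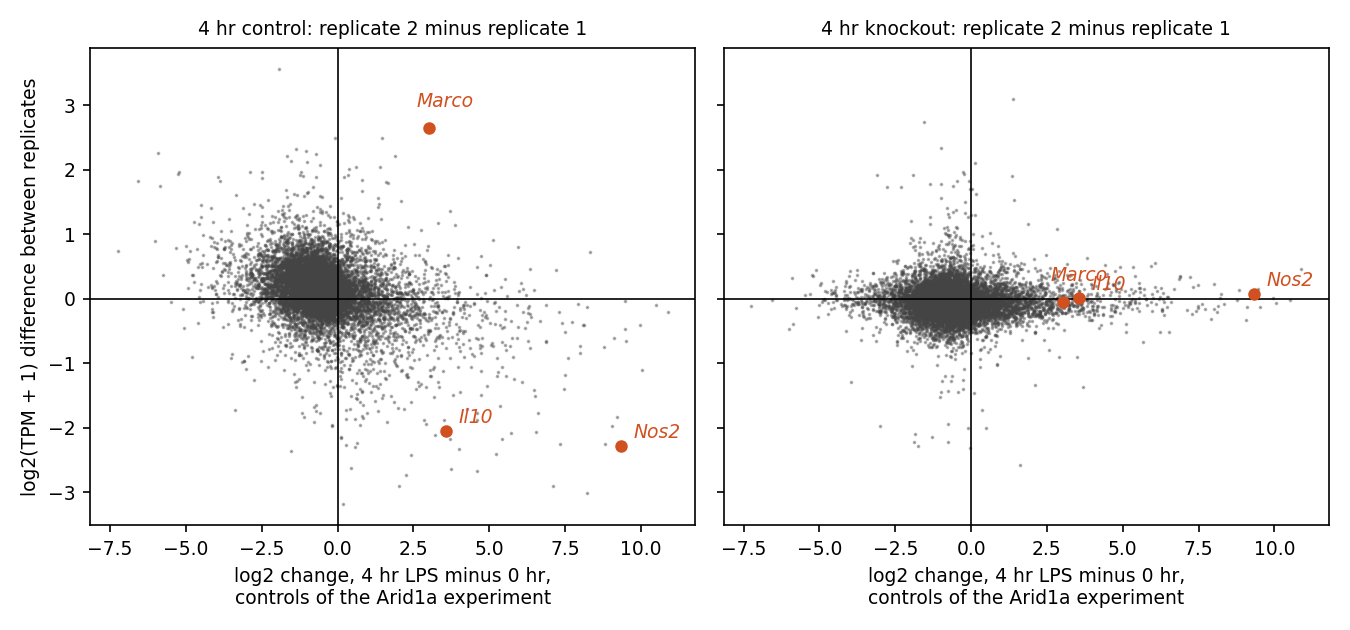
Each point is a tested gene; the x axis is its log2 change at 4 hr of LPS in the Arid1a f/f controls of another experiment and the y axis the log2(TPM + 1) difference between replicates 2 and 1, for the controls at 4 hr (left) and the knockouts at 4 hr (right). The control pair spreads more (SD 0.44 against 0.28 on the log2 scale) than the knockout pair, with Nos2 and Il10 low and Marco high in control replicate 2.

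Pbrm1 itself was first examined as a check of the labels. It stood at 18.8 and 15.7 TPM in resting controls, 15.6 and 14.7 TPM in controls at 4 hr, and 4.54 and 5.03 TPM in the knockouts. Both knockout libraries were below every control, and the level left was 31.6% of the control mean. The gene lies at chr14:31019138-31121592 on the plus strand (mm10), and the value sums all its exons. Exons outside the deleted part still count towards it, so the remainder does not measure protein. The log2 change was -1.48 ± 0.17 (standard error), with a 95% interval from -1.86 to -1.10 and an adjusted p of 0.0265. On recovered reads, where no pseudocount of 1 shrinks the estimate, the fold interval ran from 0.272 to 0.464 of control. Gnl3, a neighbour whose gene overlaps Pbrm1 on the other strand, was at 4.31 and 4.21 TPM in controls and 4.70 and 3.63 TPM in knockouts.

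With all libraries no other SWI/SNF subunit gene was called. Of 23 subunit genes tested, Pbrm1 was the only one called in the fit of all 6 libraries, and the interval lay within 1 for the other 22. With voom on recovered reads the interval lay within 1 for 21 of the 23. The subunit median with Pbrm1 included was -0.10, beside -0.12 over all tested genes. It was 0.01 without control replicate 2 and -0.23 without control replicate 1, beside -0.05 and -0.20 over all tested genes. Without control replicate 1 the changes of Arid1b and Smarcb1 were -0.54 and -0.63. Arid2, the PBAF subunit that carries an ARID domain, was at 18.6 and 15.8 TPM in controls and 19.7 and 19.2 TPM in knockouts, with an interval from -0.19 to 0.54. Brd7 had an interval from -0.31 to 0.35 and Phf10 one from -0.51 to 0.28. Among genes of the other complexes, Arid1a was at 36.7 and 35.4 TPM against 34.9 and 43.8 TPM (interval -0.25 to 0.48), and Arid1b had an interval from -0.75 to 0.09. Smarca4, the main ATPase, was at 48.4 and 53.1 TPM against 47.6 and 47.0 TPM, with an interval from -0.43 to 0.24. Smarca2, the alternative ATPase, was at 3.42 and 4.25 TPM against 2.93 and 2.70 TPM, with an interval from -0.76 to 0.09. Several of these genes overlap another annotated gene and reads were counted on both strands, so their values are less certain.

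**Figure D2:**
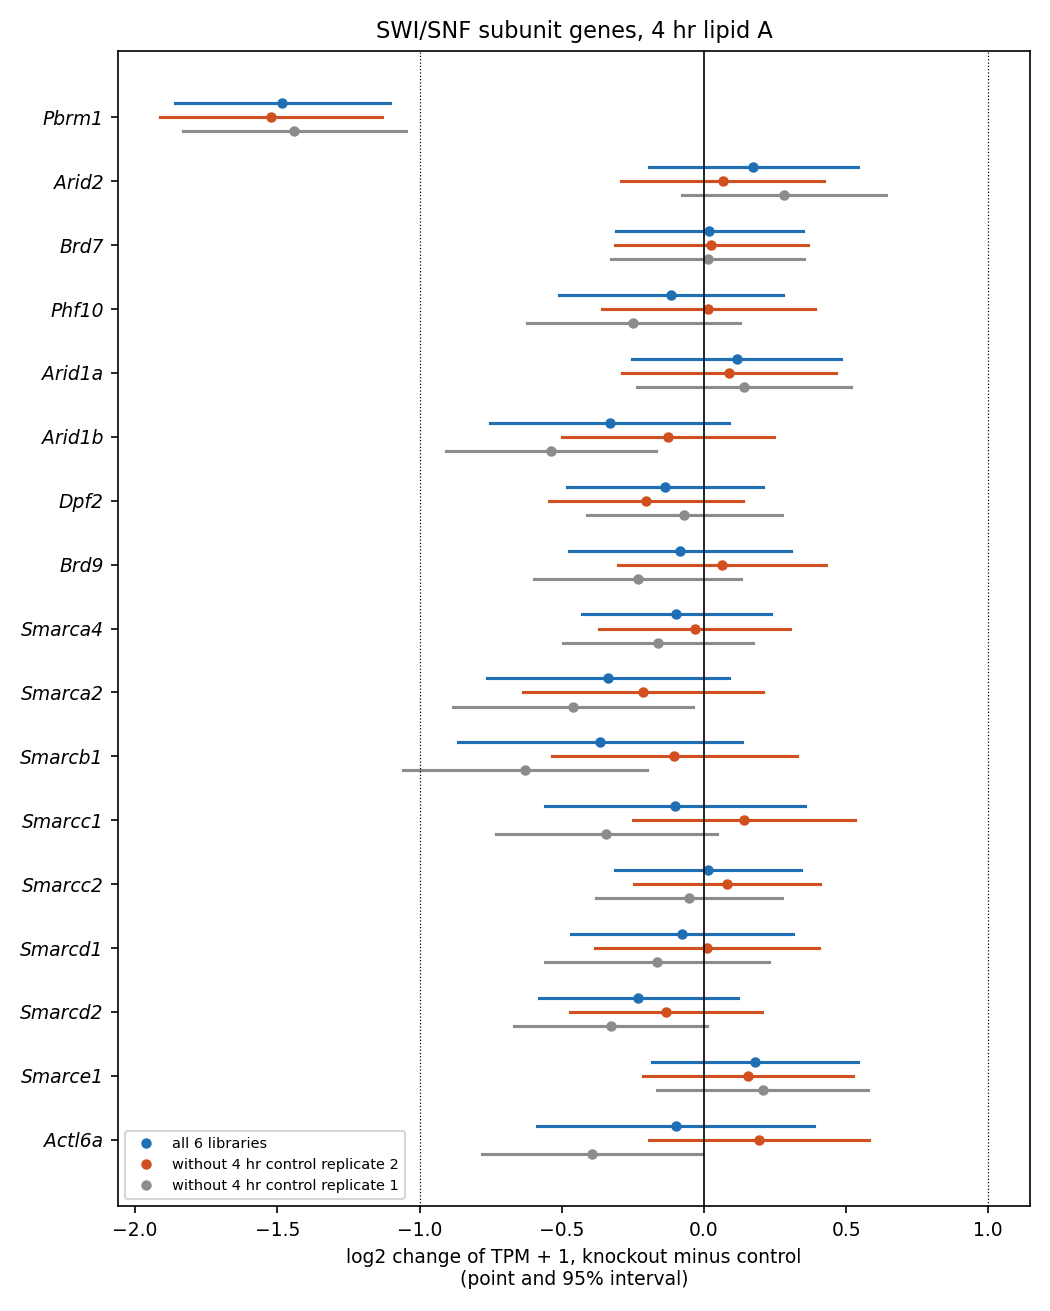
Log2 change of TPM + 1 (x axis, knockout minus control) of 17 SWI/SNF subunit genes; points are estimates and lines 95% intervals, from all 6 libraries (blue), without control replicate 2 at 4 hr (orange) and without control replicate 1 at 4 hr (grey); dotted lines mark 1 log2 unit. Pbrm1 lies beyond -1 in all 3, and the other intervals stay inside the dotted lines except the grey one of Smarcb1, which reaches -1.06.

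Besides Pbrm1, 3 genes of 200 bases or more were lower in the knockout: Gpx3, Mgl2 and Klk1b11. Gpx3, a secreted glutathione peroxidase that removes peroxides, was at 46.4 and 61.5 TPM in controls and 17.5 and 19.8 TPM in knockouts, after 106 and 110 TPM in resting controls. Its log2 change was -1.47 ± 0.17 (interval -1.87 to -1.08, adjusted p = 0.0292), and on recovered reads the fold interval was 0.307 to 0.498. Mgl2, a C-type lectin that binds galactose and marks alternatively activated macrophages, was at 5.65 and 6.44 TPM in controls and 1.00 and 1.52 TPM in knockouts. The log2 change of Mgl2 was -1.65 ± 0.19 (interval -2.07 to -1.22, adjusted p = 0.0265). Its close relative Clec10a lay in the same direction, at 56.1 and 34.5 TPM against 26.0 and 31.1 TPM, but did not pass (-0.61 ± 0.23, adjusted p = 0.468; -0.95, adjusted p = 0.0781 without control replicate 2; -0.27, adjusted p = 0.286 without control replicate 1); reads shared between the 2 genes could have been assigned to either.

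Klk1b11, a member of the kallikrein family of serine proteases, was at 9.98 and 6.36 TPM in controls and 0.58 and 1.07 TPM in knockouts. These values correspond to 110 and 67 reads against 8 and 11 reads. The log2 change was -2.31 ± 0.23 (adjusted p = 0.0189), and the fold interval on recovered reads was 0.0476 to 0.273. This family has many near-identical copies, so Klk1b11 is reported as uncertain. Of its relatives, Klk1b1 was at 0.722 and 1.23 TPM against 0.429 and 0.485 TPM, and most others were listed at 0 in every library at 4 hr. For Pbrm1, Gpx3, Mgl2 and Klk1b11 the groups did not overlap, which held, with the knockouts lower, for 32.4% of all tested genes. Klk1b11 and Mgl2 lay below the level set for naming called genes, or were called on 1 scaling only, and are named after their values were seen; the same holds for Cmc4, Mex3b, Kif5c, Snord17, Gnl3, Klk1b1, Ldha, Casp1 and the short features.

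Calls near the threshold depended on the scaling and on single libraries. When TPM was rescaled by median-ratio factors, which moved the median of all genes from -0.12 to 0.01, Gpx3 and Mgl2 were both at an adjusted p of 0.0802, Pbrm1 and Klk1b11 were both at 0.113, and Snora68 alone passed (0.00905% of genes). With each library left out in turn, the adjusted p of Pbrm1 ranged from 0.0004 (without control replicate 1) to 0.294 (without knockout replicate 1) while its log2 change stayed between -1.54 and -1.42; that of Gpx3 ranged from 5.52e-05 to 0.294 with changes of -1.68 to -1.27.

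**Figure D3:**
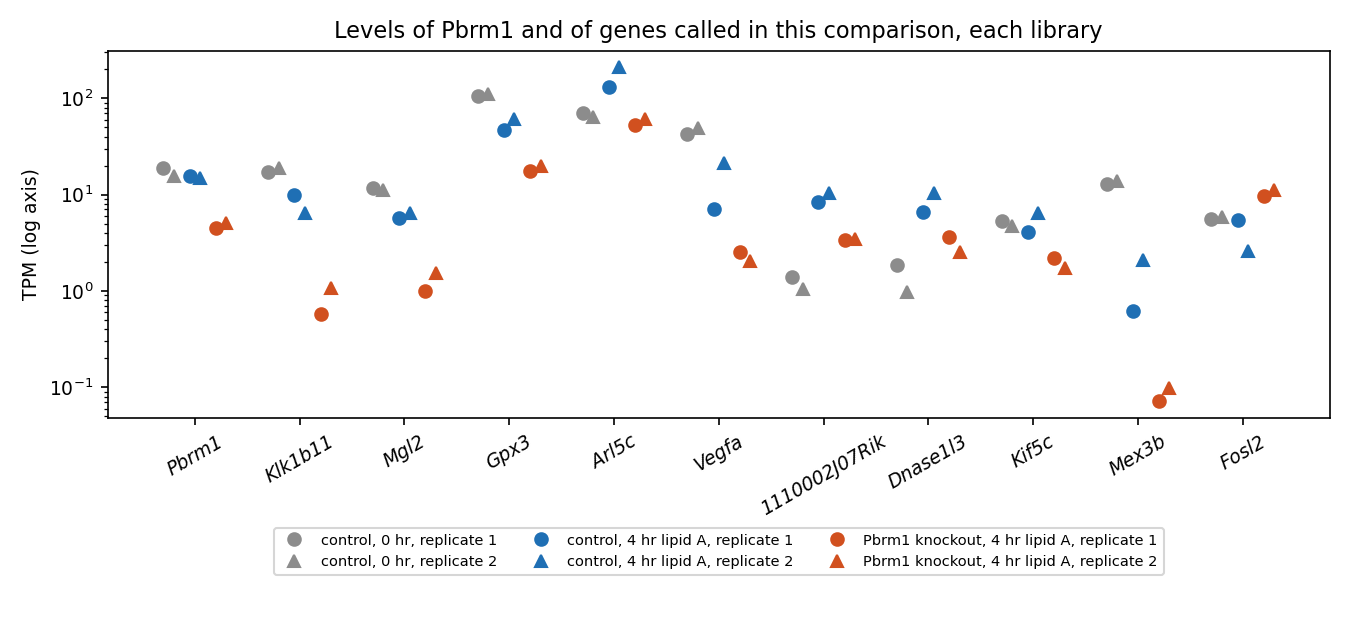
TPM (log axis) of Pbrm1 and 10 other genes in each library: resting controls in grey, controls at 4 hr in blue, knockouts at 4 hr in orange, circles for replicate 1 and triangles for replicate 2. For 10 of these genes both knockout libraries lie below both controls at 4 hr; for Fosl2 they lie above. For Vegfa, Mex3b and Fosl2 the 2 controls are far apart.

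Further genes were called without 1 of the controls or in the authors' deposited table. Arl5c, an ARF-like small GTPase, was at 131 and 209 TPM in controls and 52.1 and 60.8 TPM in knockouts, with 70.1 and 63.7 TPM in resting controls. Its log2 change was -1.54 ± 0.22 (adjusted p = 0.0796), with -1.21 (adjusted p = 0.014) without control replicate 2 and -1.87 (adjusted p = 3.4e-05) without control replicate 1. Vegfa, the angiogenic growth factor, was at 7.11 and 21.0 TPM in controls and 2.56 and 2.06 TPM in knockouts, down from 42.6 and 48.7 TPM at rest. The 2 controls of Vegfa were apart by over 1 log2 unit, and its log2 change of -2.02 ± 0.46 did not pass (adjusted p = 0.468), whereas without control replicate 2 it was -1.30 (adjusted p = 0.017) and without control replicate 1 it was -2.74 (adjusted p = 7.9e-06). Cmc4, a mitochondrial protein gene that overlaps Mtcp1, was at 8.66 and 4.29 TPM against 2.53 and 2.70 TPM and passed in the same fit (-1.42, adjusted p = 0.021), not with all libraries (-0.99, adjusted p = 0.468) or without control replicate 1 (-0.55, adjusted p = 0.0846). The remaining calls of that fit that were not shared with all libraries were 4 short features and Snord17, each listed at 0 in control replicate 2 and both knockouts.

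In the authors' deposited table for this comparison, 11 of 15032 genes had an adjusted p under 0.05 (0.0732%), 10 lower (0.0665%) and 1 higher (0.00665%) in the knockout. Of these, 4 were also called by limma with all libraries: Pbrm1, Gpx3, Mgl2 and Klk1b11. Arl5c and Vegfa were in it too, at log2 changes of -1.41 and -2.40 in the authors' deposited table. Mex3b, which encodes an RNA-binding protein, had the lowest value there (-3.79), from 0.61 and 2.07 TPM in controls and 0.072 and 0.098 TPM in knockouts, that is 27 and 87 reads against 4 and 4. 1110002J07Rik was at 8.45 and 10.3 TPM against 3.37 and 3.42 TPM (-1.31 in the authors' deposited table). Dnase1l3, a secreted nuclease, was at 6.52 and 10.4 TPM against 3.60 and 2.54 TPM. Kif5c, a kinesin heavy chain, was at 4.13 and 6.46 TPM against 2.22 and 1.73 TPM. Fosl2, a member of the AP-1 family of transcription factors, was the gene higher in that table (1.502), at 5.45 and 2.59 TPM in controls and 9.66 and 11.1 TPM in knockouts; its limma change was 1.24 ± 0.26 (adjusted p = 0.468) and 0.82 (adjusted p = 0.24) without control replicate 2 or 1.66 (adjusted p = 0.000165) without control replicate 1.

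The promoters of 3 of these genes are printed to show the sequence upstream of the start site of genes that lay lower together. The 250 bases before the start site came from RefSeq (GRCm38.p6), in which 9 of 11 genes looked up were found, and capitals mark matches on either strand to 4 motifs: AP-1 (TGANTCA), PU.1 (GAGGAAG), HIF (ACGTG) and CRE (TGACGT), of which the last pair can overlap. Gpx3 is at chr11:54902604-54902853 (plus strand), Mgl2 at chr11:70130107-70130356 (plus strand) and Vegfa at chr17:46032378-46032627 (minus strand).
Gpx3: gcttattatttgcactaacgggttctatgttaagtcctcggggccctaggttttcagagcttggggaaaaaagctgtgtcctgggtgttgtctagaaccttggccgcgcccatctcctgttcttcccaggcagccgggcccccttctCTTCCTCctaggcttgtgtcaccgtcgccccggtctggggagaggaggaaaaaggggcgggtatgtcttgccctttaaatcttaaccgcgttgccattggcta
Mgl2: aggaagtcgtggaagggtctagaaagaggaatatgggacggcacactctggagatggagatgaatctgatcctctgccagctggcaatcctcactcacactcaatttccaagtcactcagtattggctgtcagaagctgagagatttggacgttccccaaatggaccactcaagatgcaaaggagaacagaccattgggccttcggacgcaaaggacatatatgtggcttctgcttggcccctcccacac
Vegfa: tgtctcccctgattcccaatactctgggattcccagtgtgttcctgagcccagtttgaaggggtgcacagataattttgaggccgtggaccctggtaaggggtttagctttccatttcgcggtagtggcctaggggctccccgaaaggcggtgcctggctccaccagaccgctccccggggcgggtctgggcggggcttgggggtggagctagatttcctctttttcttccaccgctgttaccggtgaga
The Gpx3 window held 1 PU.1 match, a motif present in 10.7% of 32536 promoter windows of this length. The Mgl2 and Vegfa windows held 0 matches to the 4 motifs. Among the windows looked up but not printed, those of Pbrm1, Kif5c and Mex3b held CRE matches. The Pbrm1 window also held HIF matches, and that of 1110002J07Rik held an AP-1 match. Those of Klk1b11 and Fosl2 held 0 matches. Over all windows AP-1 was found in 6.73%, HIF in 16.7% and CRE in 6.5%. A match is a run of letters and says nothing on binding.

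Inflammatory genes often used to read macrophage activation did not pass with all libraries, and their bounds depended on which control was kept. Of 10 reference genes 0 were called with all libraries, beside 0.0634% of all tested genes. At so low a share this count does not set the 10 genes apart. Their median change was 0.59 with all libraries, 0.01 without control replicate 2 and 1.26 without control replicate 1. In the same order the median over all tested genes was -0.12, -0.05 and -0.20. For 6 of the 10 the controls were apart by at least 1 log2 unit, always with control replicate 2 the lower. Tnf was at 1262 and 1153 TPM in controls and 1183 and 1200 TPM in knockouts. Its interval from -0.34 to 0.30 is the tightest of the 10. Cxcl10 (9157 and 6934 TPM against 9785 and 9831 TPM) and Ccl5 (9180 and 7971 TPM against 9224 and 12717 TPM), both chemokines of the interferon arm, had intervals from -0.10 to 0.70 and from -0.09 to 0.77. Ifnb1, the type I interferon gene, was at 8.10 and 3.81 TPM against 6.90 and 5.55 TPM, with an interval from -0.54 to 0.79.

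The other 6 reference genes were those with the controls apart by at least 1 log2 unit. Il6 was at 231 and 58.5 TPM in controls and 234 and 187 TPM in knockouts, and its interval was -1.06 to 2.74 with all libraries, -0.54 to 0.25 without control replicate 2 and 1.42 to 2.21 (adjusted p = 8.3e-05) without control replicate 1. In the same order the Nos2 interval was -1.12 to 3.21, -0.43 to 0.24 and 1.85 to 2.52 (adjusted p = 1.1e-05). That of Il10 was -0.87 to 3.24, -0.42 to 0.73 and 1.64 to 2.78 (adjusted p = 0.000716). Ptgs2, which encodes cyclooxygenase-2, was at 325 and 90.2 TPM against 389 and 394 TPM, with intervals of -0.55 to 2.92, -0.08 to 0.62 and 1.75 to 2.46 (adjusted p = 1.7e-05). Il12b, a subunit of interleukin 12, was at 100 and 34.7 TPM against 62.7 and 64.3 TPM, with intervals of -1.10 to 1.31, -1.01 to -0.29 and 0.48 to 1.22 (adjusted p = 0.00593), so that its sign turned with the control kept. Il1b was the only one of the 10 whose interval lay above 0 in all 3 fits. It was at 951 and 444 TPM in controls and 1448 and 1390 TPM in knockouts, with intervals of 0.31 to 1.94, 0.23 to 0.92 and 1.33 to 2.02 and adjusted p of 0.468, 0.459 and 5.7e-05. The interval lay within 1 for 4 of the 10 with all libraries, 9 without control replicate 2 and 3 without control replicate 1.

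**Figure D4:**
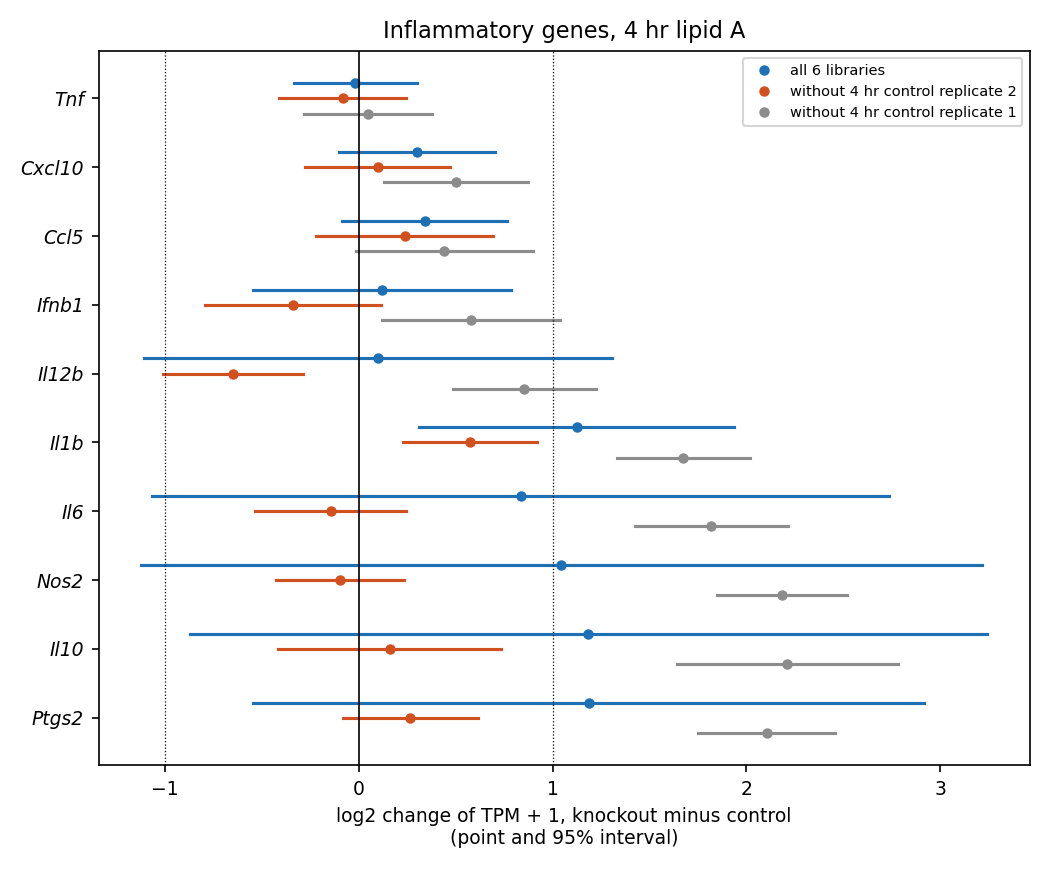
Log2 change of TPM + 1 (x axis, knockout minus control) of 10 inflammatory genes; points are estimates and lines 95% intervals, from all 6 libraries (blue), without control replicate 2 at 4 hr (orange) and without control replicate 1 at 4 hr (grey). For Il6, Nos2, Il10 and Ptgs2 the blue lines reach beyond 2, the orange ones stay below 1 and the grey ones lie wholly above 1.

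In the wider set of stimulus-induced genes, medians and bounds also moved with the control that was kept. Among the 1121 induced genes 0 were called with all libraries, beside 0.0634% of all tested genes. That share is so low that a count of 0 does not set the induced genes apart. With all libraries their median change was 0.05, beside -0.12 over all tested genes. It was -0.01 without control replicate 2 and 0.13 without control replicate 1, beside -0.05 and -0.20 over all tested genes. After median-ratio scaling the median of the induced genes was 0.22 (0.01 over all genes). The interval lay within 1 for 908 of them (81.0%), for 1076 (96.0%) without control replicate 2 and for 815 (72.7%) without control replicate 1. With voom on recovered reads the interval lay within 1 for 69.3% of the induced genes. The 3400 repressed genes had a median of -0.18, which was -0.07 without control replicate 2 and -0.31 without control replicate 1. The interval lay within 1 for 19 of 29 tested primary NF-kB genes (28 without control replicate 2 and 16 without control replicate 1). The same counts were 11 of 22 for the secondary inflammatory list (21 and 7), 37 of 43 for the interferon list (41 and 36) and 12 of 19 for the chemokine list (18 and 10). No member of these 4 lists was called with all libraries, beside 0.0634% of all tested genes. In the order given, their medians were 0.07, 0.08, -0.01 and 0.03 without control replicate 2, beside -0.05 over all tested genes. Without control replicate 1 they were 0.34, 0.75, 0.26 and 0.44, beside -0.20 over all tested genes. Dusp1, the phosphatase that shuts off p38 and JNK, was at 158 and 30.7 TPM in controls and 266 and 310 TPM in knockouts, but at an adjusted p of 0.488, or 0.108 without control replicate 2 and 1.7e-06 without control replicate 1.

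In the lists of alternative activation, cholesterol synthesis, NRF2 target and glycolysis and hypoxia genes, which do not hold Gpx3, only Mgl2 passed with all libraries. Of 10 tested alternative activation genes Mgl2 was called lower, and the others were not called; Chil3, a secreted chitinase-like protein, was at 11.7 and 15.01 TPM against 9.43 and 6.46 TPM, and Il4ra, the interleukin 4 receptor chain, at 502 and 170 TPM against 653 and 672 TPM. Groups that did not overlap, with both knockouts below both controls, were found for 32.4% of all tested genes and for 15 of 22 cholesterol synthesis genes, 8 of 14 NRF2 target genes and 13 of 21 glycolysis and hypoxia genes; the opposite order was found for 8.97% of all genes. None of the tested members of these 3 lists was called with all libraries, beside 0.0634% of all tested genes. The cholesterol synthesis median was -0.50 with all libraries, -0.20 without control replicate 2 and -0.71 without control replicate 1. In the same order the NRF2 median was -0.42, -0.26 and -0.67, and the glycolysis and hypoxia median -0.27, -0.14 and -0.40. The median over all tested genes was -0.12, -0.05 and -0.20. After median-ratio scaling the 3 list medians were -0.38, -0.26 and -0.12, beside 0.01 over all tested genes. Hmox1, which degrades heme, was at 87.0 and 155 TPM against 71.5 and 69.2 TPM, and Ldha, lactate dehydrogenase A, at 213 and 247 TPM against 158 and 153 TPM. In each of the 3 lists 1 gene had both knockouts above both controls. These were Sc5d (14.3 and 14.3 TPM against 16.7 and 16.2 TPM), Gsr (53.9 and 52.1 TPM against 61.2 and 64.6 TPM) and Pfkfb3 (257 and 168 TPM against 311 and 324 TPM).

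**Figure D5:**
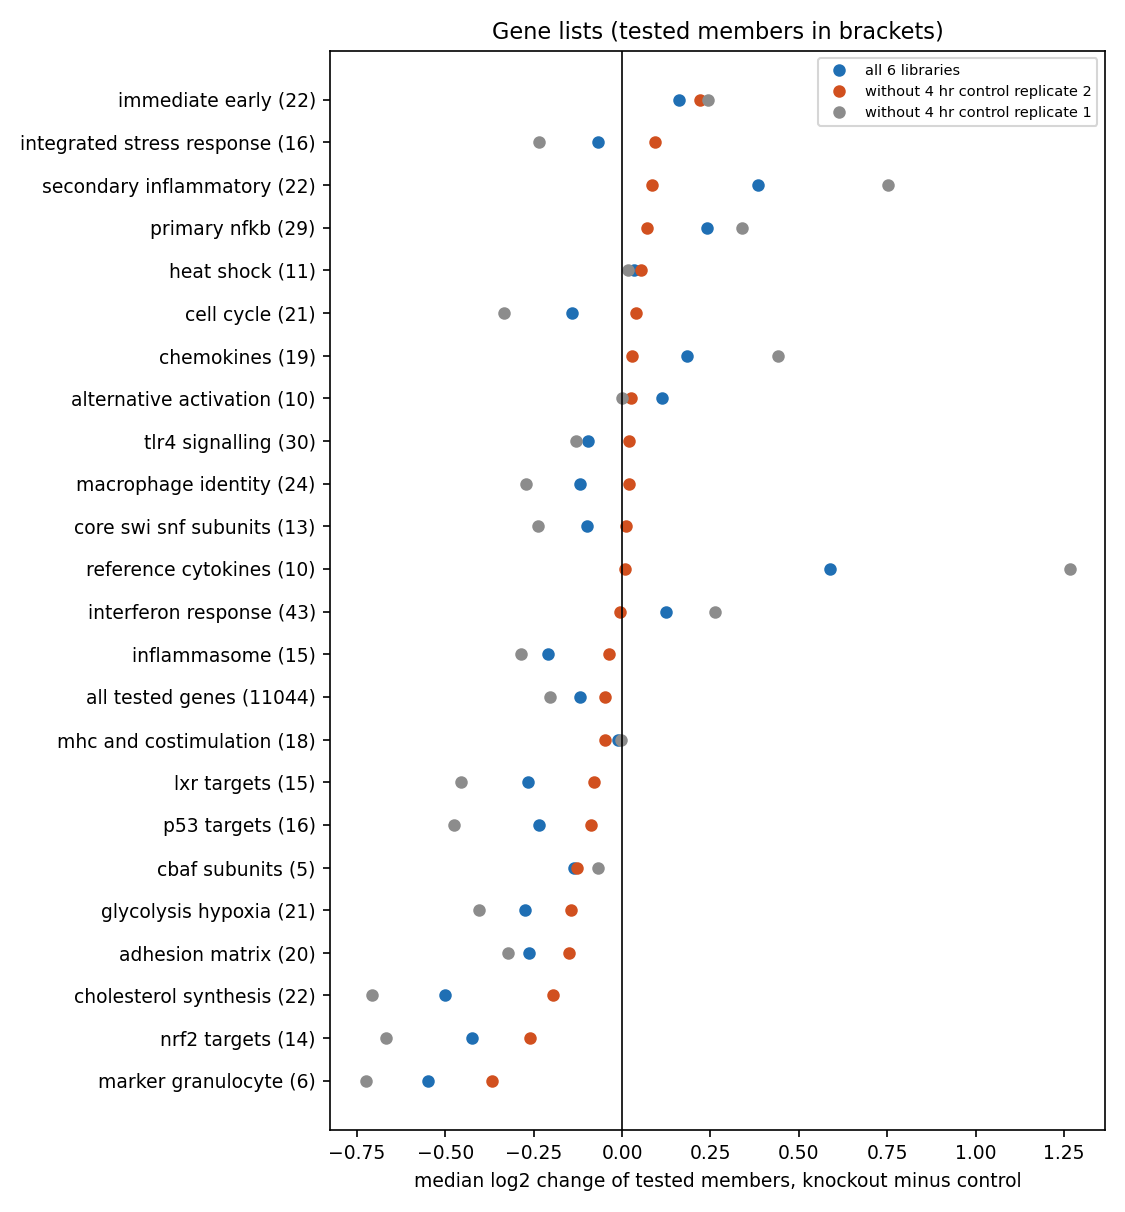
Median log2 change (x axis, knockout minus control) of the tested members of each gene list with at least 5 of them, with all 6 libraries (blue), without control replicate 2 at 4 hr (orange) and without control replicate 1 at 4 hr (grey). The reference cytokine median moves from 0.59 to 0.01 without control replicate 2 and to 1.26 without control replicate 1. The granulocyte marker, NRF2 and cholesterol synthesis medians stay below 0 in all 3. So do those of other lists and the median over all tested genes (-0.12, -0.05 and -0.20).

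Markers of the labelled cell type were present, and macrophage, granulocyte and stromal markers all summed lower in both knockouts than in both controls. All 6 defining macrophage markers were expressed: Adgre1 was at 604 and 943 TPM in controls and 611 and 594 TPM in knockouts, and Csf1r at 517 and 704 TPM against 467 and 474 TPM. With Mertk and Cd14 added, the 8 macrophage markers summed to 16643 and 21521 TPM in controls and 16166 and 15935 TPM in knockouts. Of 10 granulocyte markers 6 were tested, and 0 were called with all libraries, beside 0.0634% of all tested genes. All 6 had both knockouts below both controls, beside 32.4% of all tested genes. Their median was -0.55, -0.37 without control replicate 2, -0.73 without control replicate 1 and -0.39 after median-ratio scaling. The same medians over all tested genes were -0.12, -0.05, -0.20 and 0.01. The 10 granulocyte markers summed to 436 and 525 TPM in controls, 314 and 342 TPM in knockouts and 414 and 387 TPM at rest. Of these, 5 were under 1 TPM in every library at 4 hr. Ltf, the granule protein lactoferrin, had the lowest change (11.1 and 13.6 TPM against 6.21 and 6.07 TPM; -0.90 ± 0.17, adjusted p = 0.41), and Ngp was at 90.2 and 99.6 TPM against 54.8 and 64.3 TPM. The 8 stromal and endothelial markers summed to 27.1 and 35.6 TPM in controls and 24.2 and 23.4 TPM in knockouts. Of 3 tested 0 were called with all libraries, beside 0.0634% of all tested genes. Most of the sum was Kdr, at 23.9 and 31.7 TPM against 19.7 and 18.4 TPM. Kdr was at 7.78 and 5.73 TPM at rest, and its change without control replicate 1 was -0.71. The median change of the 3 tested stromal markers was 0.27, opposite in sign to the sum. The 9 dendritic cell markers summed to 8.35 and 4.33 TPM in controls and 7.17 and 6.65 TPM in knockouts, with 7 of them under 1 TPM in every library at 4 hr. In bulk RNA fewer cells of a type and less RNA per cell cannot be told apart, and the part of these markers in other results was not tested. All 8 lymphocyte markers and all 10 erythroid and mast cell markers in the table were under 1 TPM in every library at 4 hr.

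The genes lower without Pbrm1 were set beside the loss of Arid1a, from a separate experiment with its own controls, with LPS in place of lipid A. In Arid1a knockout cells at 4 hr, 3337 of 11798 genes were called (28.3%), 2057 higher (17.4%) and 1280 lower (10.8%). The share here was 0.0634%, from a fit of fewer libraries whose controls differed. These shares therefore do not compare the size of the effects, and no test was made between the experiments. Gpx3 was lower there too (-1.01 ± 0.10, adjusted p = 8.8e-05), as were Arl5c (-0.80 ± 0.10), Vegfa (-1.75 ± 0.16), Klk1b11 (-0.76 ± 0.22) and 1110002J07Rik (-0.83 ± 0.16). Mgl2 was at -0.19 ± 0.17 there and did not pass (adjusted p = 0.453), nor did Mex3b (-0.20 ± 0.15, adjusted p = 0.356). Kif5c, Dnase1l3 and Fosl2 had opposite signs in the 2 experiments: Kif5c rose (1.01 ± 0.16), Dnase1l3 rose (0.45 ± 0.14, adjusted p = 0.0343) and Fosl2 fell (-1.54 ± 0.17) after loss of Arid1a. Pbrm1 did not pass there (0.03 ± 0.16, adjusted p = 0.935). The Arid1a transcript itself was lower there but did not pass either (-0.56 ± 0.21, adjusted p = 0.0838).

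Exonic reads recovered from TPM numbered 18040527 to 25175672 in the 6 libraries, of totals of 21744715 to 29647009 given in the table header. A gene of 2 kb needed 0.092 to 0.125 TPM to hold 3 reads, and this floor covers counting error only. The 3 short features that were called held few reads: Snora68 had 2 and 2 reads in the controls and 0 and 0 in the knockouts, Mir7027 had 1 and 1 against 0 and 0, and Mir1668, which overlaps Adgre5, had 19 and 21 against 6 and 2.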

How the data were processed

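The submitters' processing notes name STAR 2.5.3a, HOMER, DESeq2 and the build mm10. Per the file headers, exons were counted on both strands, condensed to genes and written by the authors as TPM. The authors' deposited comparison table holds log2 fold changes, p-values and adjusted p-values. TPM is a share of a total, so a rise in some transcripts lowers the TPM of others. TPM times length gave whole reads for 100% of low values, within 0.1 read; 7 TPM columns of another experiment were not used.

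Genes at TPM of at least 1 in at least 2 of 6 libraries (11044 of 24537) were fitted on log2(TPM + 1) in limma 3.58.1 under R 4.3.3, with trend and robust moderation, 3 residual degrees of freedom and Benjamini-Hochberg adjustment (threshold 0.05). The added 1 shrinks changes and intervals of low genes; voom on recovered reads gave fold intervals. The scripts were tested on simulated data. Exonic depth was 18040527 to 25175672 reads. The comparison, the 29 gene lists and the rules were chosen with earlier results of these data known. Named genes were the subunit and reference genes, the extreme members of each list (mean of at least 5 TPM), the genes with the largest control difference and those called in the authors' deposited table at 5 TPM or more. Alternatives were other scalings, filters, pseudocounts and models, and leaving out libraries.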

Additional observations from a re-analysis of the deposited data

How the results depend on the processing

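With the main settings 7 genes were lower and 0 higher. A pseudocount of 0.1 gave 12 (3 higher, 9 lower), no filter on TPM 2, a plain limma fit (neither trend nor robust) 4, leaving out features under 200 bases 4, median-ratio scaling 1 and voom on recovered reads 2, all lower except as given. The fit of only the 4 libraries at 4 hr, and a test for a change beyond 1 log2 unit, gave 0 each. Leaving out 1 library at a time gave 0 to 2159 genes, 0 to 506 higher and 0 to 1653 lower; the highest counts came without control replicate 1 at 4 hr, and without control replicate 2 there were 13. An alternative added after seeing the data, without control replicate 2 and with median-ratio scaling, gave 18 (2 higher, 16 lower). With the replicate number as a block 0 genes were called; the replicate differences correlated at 0.15, 0.23 and 0.01 between groups, so the numbers were not taken to pair libraries. The share of genes with an interval within 1 ran from 76.1% to 96.0% over the libraries left out. It was 68.5% with a pseudocount of 0.1 and 69.2% with voom. The median of the 1121 induced genes was 0.05, 0.22 with median-ratio scaling and 0.23 with voom. No called gene changed sign under any of these settings. With 2 libraries a group, effects smaller than the intervals were not detectable. Many larger ones did not pass after adjustment either. In limma 1148 genes had an unadjusted p under 0.05, and 7 an adjusted p under 0.05.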

Other observations

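Immediate early genes, the first transcription factors and feedback regulators to respond to a stimulus, had a median change of 0.16 over 22 tested members, and of 0.22 without control replicate 2 and 0.24 without control replicate 1. In the same order the median over all tested genes was -0.12, -0.05 and -0.20. Of the 22 immediate early genes 0 were called with all libraries, beside 0.0634% of all tested genes. In 10 of them both knockouts were above both controls, beside 8.97% of all tested genes. Cebpb, a transcription factor of the myeloid lineage, was at 27.6 and 27.1 TPM in controls and 38.0 and 44.5 TPM in knockouts; its log2 change was 0.57 ± 0.16 with an interval from 0.21 to 0.94 (adjusted p = 0.468), 0.56 (adjusted p = 0.539) without control replicate 2 and 0.58 (adjusted p = 0.0341) without control replicate 1.

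Of 15 tested inflammasome genes 0 were called with all libraries, beside 0.0634% of all tested genes. Among these 15 the interval lay within 1 for 14, and for 15 with voom on recovered reads. Their median without control replicate 1 was -0.29, beside -0.20 over all tested genes. Nlrp3, the sensor, was at 207 and 270 TPM in controls and 159 and 150 TPM in knockouts (-0.61, interval -0.99 to -0.24; -0.80, adjusted p = 0.00448 without control replicate 1), Casp1 at 530 and 559 TPM against 577 and 515 TPM, and Il18 at 133 and 123 TPM against 144 and 136 TPM. Of 21 cell cycle genes 0 were called with all libraries, beside 0.0634% of all tested genes, and 20 had an interval within 1. Many of them were low, and with voom on recovered reads the interval lay within 1 for 14 of the 21. The cell cycle median without control replicate 1 was -0.335. Mki67, a marker of dividing cells, was at 20.9 and 18.0 TPM against 21.8 and 23.3 TPM. Of 11 heat shock genes 0 were called with all libraries, beside 0.0634% of all tested genes. The interval lay within 1 for all 11, and for 10 with voom on recovered reads (median 0.02 without control replicate 1).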
